A study of Mus musculus with 8 samples.

Results

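CC chemokines and fractalkine are leukocyte attractants, and 10 of their genes (Ccl2, Ccl5, Ccl7, Ccl8, Ccl11, Ccl17, Ccl20, Ccl25, Ccl28 and Cx3cl1, which encodes fractalkine) were followed by symbol through the 24346 genes listed for mouse adipose-derived stem cells (ADSCs). All 10 were above 0 in at least 1 library and all were tested. The cells came from gonadal fat of 12-week-old male wild-type BALB/c mice and were grown either in 2D, as conventional cultures, or in 3D, embedded in Matrigel, a basement membrane gel, where they form organoids. There were 4 libraries of 2D-cultured ADSCs (mice 2, 3, 4 and 5) and 4 of 3D-cultured ADSCs (mice 1, 4, 5 and 7), and both cultures were sequenced for mice 4 and 5. The 3D cultures of the study were made with and without Wnt3a- and R-Spondin1-conditioned media and were passaged, and which medium and passage the sequenced 3D cultures had was not assigned here.

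Chemokines are small secreted proteins that bind receptors coupled to G proteins on leukocytes and draw these cells along a gradient. The CC family is named after adjacent cysteines near the start of the protein, whereas fractalkine (CX3C) is made as a membrane protein on a mucin-like stalk and is released when a protease cuts that stalk. Several CC genes are inducible by TNF, interleukin-1 or interferons through NF-κB and STAT factors. In fat, CCL2 from stromal cells and adipocytes is known for drawing in monocytes, CCL11 draws eosinophils, CCL17 draws T cells, and CCL20, CCL25 and CCL28 are best known from epithelia of gut, thymus and mucosal glands.

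Levels are given as FPKM, fragment counts scaled to transcript length and to the mapped fragments of the library, after quantile normalization, which gives the libraries the same distribution of values. Differences are fitted on log2(FPKM + 1), 3D minus 2D, with limma, and a gene is called where the adjusted p (Benjamini-Hochberg over 18862 genes) is below 0.05. Where a culture lies near or below 1 FPKM, the size of a fitted difference depends on the 1 added, the pseudocount. The depth, estimated from the steps between low values, was 17.3 to 18.4 M fragments in 2D and 15.4 to 16.35 M in 3D. Each library is 1 animal and culture, so errors and p-values measure the spread between these cultures. Marker genes were checked in each library as summed deposited FPKM. Of the stromal markers, Pdgfrb and Dcn were at 0 throughout 3D and Col1a1 reached at most 0.123 FPKM there, against 295 to 824 FPKM in 2D, so the labelled cell type, mesenchymal stem cells, lacked these defining markers in 3D, and of the 10 stromal markers 7 were called lower and 1, Ly6a, higher. Cd44 stayed at 52.9 to 89.7 FPKM in 3D, beside 92.7 to 180 in 2D, and the stromal sum was 1077 to 1973 FPKM in 2D and, mostly from Ly6a in its higher libraries, 127 to 2660 in 3D. The 8 epithelial markers, Epcam and Cdh1 among them, summed to between 1815 and 2324 FPKM in 3D and between 2.99 and 658 in 2D, with 7 of the 8 called higher, and their part in the differences below was not tested. The 5 mesothelial markers (Msln, Upk3b, Wt1, Lrrn4 and Upk1b) summed to 1.41 FPKM (mouse 2), 853 (mouse 3), 2218 (mouse 4) and 0.333 (mouse 5) in 2D and to between 2.26 and 30.4 in 3D, which sets the 2D libraries of mice 3 and 4 apart. Among the 3D libraries, that of mouse 1 stood apart in Ly6a, the Sca-1 gene, at 50.3 FPKM against 1627 to 2607 in the others and 26.0 to 189 in 2D. Its sample description also ends in a number where those of the other libraries end in 2D or 3D, which the sources used here do not explain, while its title gives it as 3D cultured. The 10 leukocyte markers summed to 4.22 to 24.8 FPKM in 2D and 103 to 138 in 3D, of which Cd14 alone was 68.2 to 131 in 3D. Cd68 was also higher in every 3D library (6.66 to 32.3 against 0.562 to 2.86) and Csf1r reached 8.13 in 3D, whereas Lyz2 reached 19.6 in 2D and was listed at 0 in 3D, and Ptprc, the pan-leukocyte CD45 gene, was at most 0.0788 in any library and Cd3e was listed at 0. The 5 endothelial markers summed to at most 6.37 FPKM in any library and the 4 adipocyte markers to at most 0.136, with Adipoq and Lep at 0. In bulk RNA, fewer cells of a type and less RNA per cell cannot be told apart.

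The transcripts of the 10 genes differed between the cultures in amount and in makeup. The 10 genes together amounted to 121, 279, 257 and 130 FPKM in 2D (mice 2, 3, 4 and 5) and to 24.9, 28.8, 29.0 and 27.3 FPKM in 3D (mice 1, 4, 5 and 7). Every 2D total was above every 3D total. CC genes outside the 10 are not in these totals, among them Ccl27a, at 7.06 to 9.89 FPKM in 3D mice 4, 5 and 7. The neighbouring genes Ccl2, Ccl7, Ccl8 and Ccl11 on chromosome 11 made up 69.9% to 97.6% of the 2D totals and 0.397% to 8.56% of the 3D totals. Cx3cl1 was the leading transcript of the 10 in each 3D library, with 39.5% to 58.6% of the total. Behind it came Ccl28 in the 3D library of mouse 1, at 33.3%, and Ccl5 in those of mice 4, 5 and 7, at 34.7%, 21.8% and 19.9%. Among the 2D libraries Ccl7 led in mice 2 and 5, at 43.4% in each, and Ccl2 led in mice 3 and 4, at 61.4% and 56.4%.

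**Figure D1:**
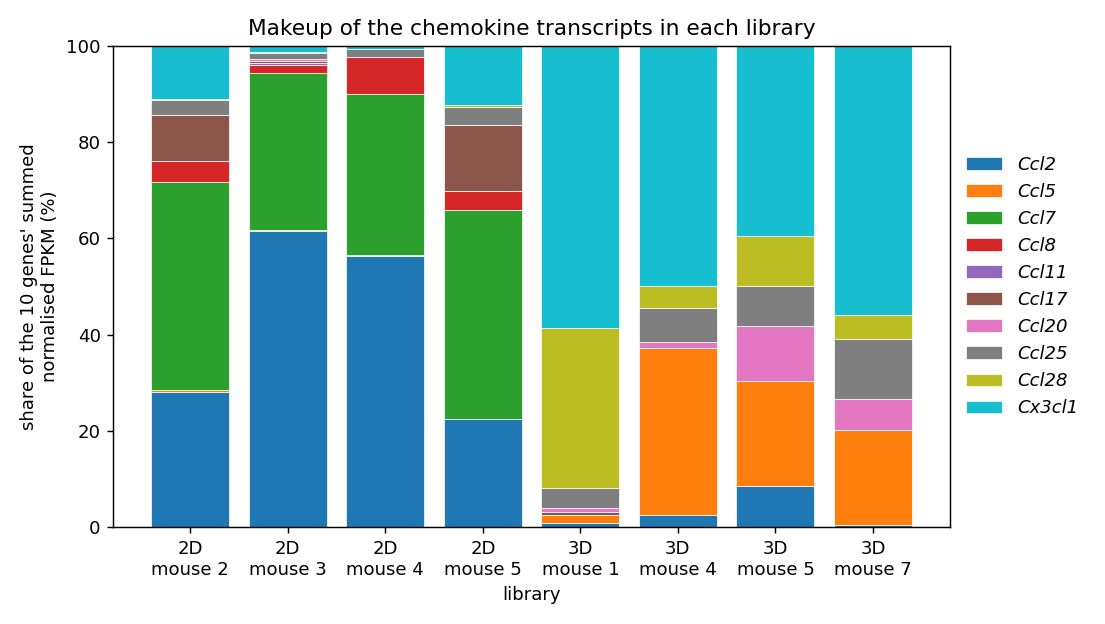
Share of each of the 10 genes in their summed normalised FPKM, in percent, for each of the 8 libraries. Ccl2 and Ccl7 fill most of the 2D bars, while Cx3cl1 takes 39.5% to 58.6% of the 3D bars.

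Of the 10 genes, 2 rose in 3D (Ccl5 and Ccl28), 4 fell (Ccl2, Ccl7, Ccl8 and Ccl25) and 4 did not pass the test (Ccl11, Ccl17, Ccl20 and Cx3cl1). Over all 18862 genes tested, 21.2% were called higher and 20.3% were called lower. The 4 libraries of each culture did not overlap for 5 of the 10 genes, beside 42.5% of all genes. The median fitted difference was -0.53 on the log2 scale for the 10 genes, or -0.58 with the 3 genes listed at 0 in every 3D library set at the bound given by their floors, and 0.00 for all genes tested. With the mouse as a block, limma called 0 of the 10 and 0 of all genes, and the adjusted p of the 6 genes lay between 0.111 and 0.227; that fit has 1 residual degree of freedom. The calls of Ccl2, Ccl7 and Ccl8 held when any 1 library was left out. Without the 3D library of mouse 1, 5 of the 10 genes were called, all but Ccl25 of the 6. Of all genes tested there, 7534 of 18633 were called. With the 2D libraries of mice 3 and 4 left out 4 were called (Ccl2, Ccl7, Ccl8 and Ccl17), beside 7766 of all 18428. With those of mice 2 and 5 left out 5 were called (Ccl2, Ccl7, Ccl8, Ccl11 and Cx3cl1), beside 6296 of all 18575. Both settings that left out 2D libraries were chosen after seeing the data. The calls of Ccl17, Ccl11 and Cx3cl1 there came from leaving out the 2D libraries nearest to 3D, which favours a call.

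**Figure D2:**
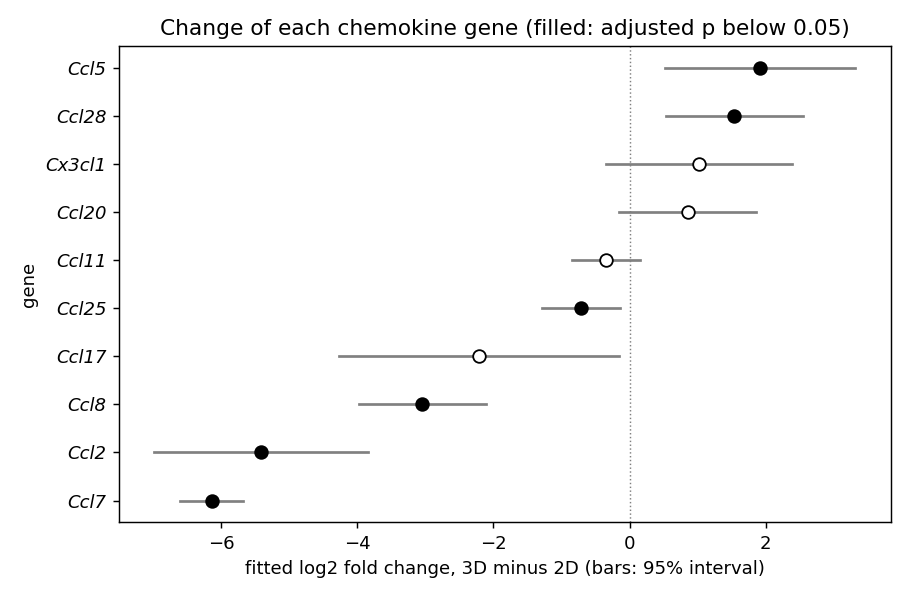
Fitted log2 fold change of each gene, 3D minus 2D, with its 95% interval, ordered by size. Filled points mark the 6 genes with an adjusted p below 0.05, from Ccl7 at -6.14 to Ccl5 at 1.92.

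Ccl2 (ENSMUSG00000035385.5, chr11:82035571-82037453, plus strand, mm10) encodes the main attractant of CCR2-bearing monocytes. Its level was 34.1 FPKM in mouse 2, 172 in mouse 3, 145 in mouse 4 and 29.1 in mouse 5 in 2D, and 0.216, 0.724, 2.48 and 0.108 in mice 1, 4, 5 and 7 in 3D. The lowest 2D library was above the highest 3D library. The 2D libraries of mice 3 and 4, the ones with mesothelial markers, were the higher ones in 2D. As deposited, 3D mice 1 and 7 were at 0.339 and 0.104 FPKM, near or below what 3 fragments would give, 0.334 and 0.310 FPKM. The mean was 94.9 ± 73.9 FPKM in 2D and 0.883 ± 1.10 in 3D (SD, n = 4 each). Ccl2 fell by 5.41 on the log2 scale (SE 0.68, 95% interval -6.99 to -3.84, limma adjusted p = 5.6e-04). In the same animal, it was lower in 3D by a log2 difference of -6.40 for mouse 4 and -3.11 for mouse 5. An antisense gene, Gm17268, overlaps Ccl2 in the annotation, and whether the counting used strand was not given in the sources used here.

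Ccl7 (ENSMUSG00000035373.2, chr11:82045712-82047525, plus strand), a further ligand of monocyte receptors, lies 8.26 kb behind Ccl2. Its level in 2D was 52.4, 91.2, 86.0 and 56.3 FPKM in mice 2, 3, 4 and 5, and it was listed at 0 in all 4 libraries of 3D. From the depth and the transcript length, the 2D values rest on about 631, 1019, 1037 and 678 fragments. A count of 0 allows 3 fragments per library, or up to 0.341 FPKM here, so the 2D mean of 82.1 deposited FPKM makes Ccl7 at least 241-fold lower in 3D. Such floors cover counting error only. The call had a limma adjusted p of 6.8e-07, and the fitted difference of -6.14 (SE 0.20) depends on the pseudocount and is not a bound.

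Ccl8 (ENSMUSG00000009185.2, chr11:82115185-82116799, plus strand), whose product attracts monocytes and T cells, was also listed at 0 in every 3D library. In 2D it was at 5.23, 4.79, 19.5 and 5.28 FPKM in mice 2, 3, 4 and 5, from about 22, 22, 106 and 23 fragments. Mouse 4 stood above the other 2D libraries, which lay close together. Against a floor of 0.693 FPKM and a 2D mean of 8.38 deposited FPKM, Ccl8 was at least 12.1-fold lower in 3D, or at least 6.55-fold without the 2D library of mouse 4 (fitted difference -3.05, SE 0.40, limma adjusted p = 7.2e-04).

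Ccl11 (eotaxin, ENSMUSG00000020676.2, chr11:82057823-82062955, plus strand), which lies between Ccl7 and Ccl8, did not pass the test. In 2D it was at 0, 1.03, 0.304 and 0 FPKM for mice 2, 3, 4 and 5, from about 14 fragments in mouse 3 and 5 in mouse 4, and listed at 0 throughout 3D. The cultures overlapped at 0, and the fitted difference was -0.35 (SE 0.21, limma adjusted p = 0.231). The libraries with fragments were those of mice 3 and 4, where the mesothelial markers were high. With the 2D libraries of mice 2 and 5 left out, the difference was -0.76 (limma adjusted p = 0.0227). Those were the 2D libraries at 0, left out after seeing the data, a choice that favours a call. Ccl12, also within this cluster, was listed at 0 in all 8 libraries.

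Promoters were taken from the RefSeq table of GRCm38.p6, which holds 250 bases before and 50 after the annotated start and covered 6 of the 10 genes, Ccl8, Ccl17, Ccl20, Ccl25, Ccl28 and Cx3cl1. Ccl2, Ccl5, Ccl7 and Ccl11 had no entry in it. The promoter of Ccl8 (chr11:82114935-82115234, plus strand) is printed for the chromosome 11 genes listed at 0 in 3D, 5′ to 3′, with the letters TATAAA in capitals.
Ccl8: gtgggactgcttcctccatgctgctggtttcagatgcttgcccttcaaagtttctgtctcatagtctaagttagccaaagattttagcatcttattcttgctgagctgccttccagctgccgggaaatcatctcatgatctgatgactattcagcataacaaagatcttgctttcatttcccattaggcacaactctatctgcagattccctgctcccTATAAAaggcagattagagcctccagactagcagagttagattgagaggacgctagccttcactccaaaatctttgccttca
The TATAAA begins at position -32 from the start, and these letters occur on the gene's strand in 8.32% of the 32851 promoters of the table. The window holds no match to a κB motif, to the STAT motifs TTCNNNGAA and TTCNNNNGAA or to the interferon-type motif GAAANNGAAA on either strand, which describes only these letters.

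**Figure D3:**
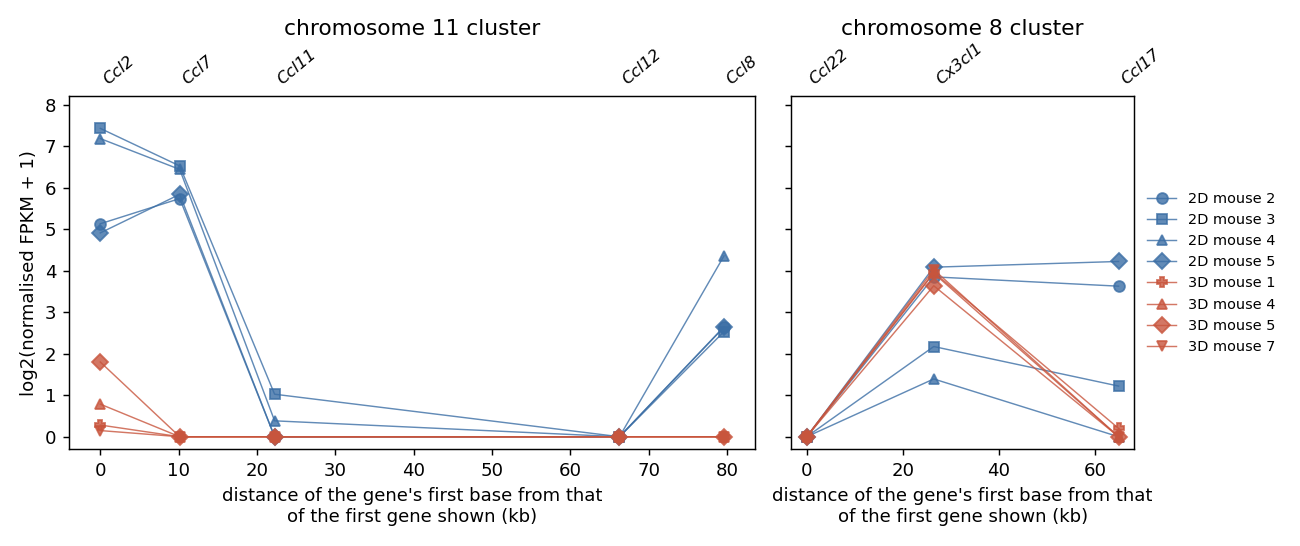
Level of each gene, as log2(normalised FPKM + 1), against its distance in kb from the first gene of its cluster, for the genes between Ccl2 and Ccl8 on chromosome 11 and between Ccl22 and Ccl17 on chromosome 8. Blue marks are the 2D libraries and red marks the 3D libraries, and lines join the values of 1 library; the 3D libraries lie at or near 0 along chromosome 11, with a highest Ccl2 level of 2.48 FPKM.

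The chromosome 8 pair, Cx3cl1 and Ccl17, was uneven between the 2D libraries. Cx3cl1 (ENSMUSG00000031778.13, chr8:94772009-94782427, plus strand) and Ccl17 (ENSMUSG00000031780.2, chr8:94810453-94812036, plus strand) lie 28.0 kb apart, next to Ccl22, which was listed at 0 in all 8 libraries. Both promoters are shown because the genes stood high in the same 2D libraries. Their windows are chr8:94771930-94772229 for Cx3cl1 and chr8:94810203-94810502 for Ccl17, on the plus strand, and the capitals mark TATAAA in Cx3cl1 and the STAT motifs in Ccl17.
Cx3cl1: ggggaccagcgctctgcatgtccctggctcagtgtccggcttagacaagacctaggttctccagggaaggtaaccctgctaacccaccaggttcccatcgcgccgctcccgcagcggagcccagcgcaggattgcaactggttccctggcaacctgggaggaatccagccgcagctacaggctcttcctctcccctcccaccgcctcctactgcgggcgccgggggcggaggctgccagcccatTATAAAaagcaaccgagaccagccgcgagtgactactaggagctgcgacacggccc
Ccl17: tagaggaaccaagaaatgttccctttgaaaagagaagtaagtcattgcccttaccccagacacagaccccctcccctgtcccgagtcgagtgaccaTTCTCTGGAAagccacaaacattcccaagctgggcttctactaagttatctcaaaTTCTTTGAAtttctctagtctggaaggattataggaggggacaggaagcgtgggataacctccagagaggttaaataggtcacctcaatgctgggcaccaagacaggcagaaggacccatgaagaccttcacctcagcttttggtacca
The Ccl17 window holds a match to TTCNNNGAA at position -99 from the start and a match to TTCNNNNGAA at -154, with both strands read; 8.3% and 6.95% of all promoters hold a match to each. Cx3cl1 had neither, and its TATAAA begins at position -6 from the RefSeq start. That start lies downstream of the first base of the Cx3cl1 coordinates given above, and so does the TATAAA. No κB match was in either window.

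Cx3cl1, fractalkine, was the most abundant of the 10 transcripts in 3D and was level there, at 14.6, 14.4, 11.5 and 15.3 FPKM in mice 1, 4, 5 and 7. In 2D it was at 13.4, 3.51, 1.63 and 16.0 FPKM in mice 2, 3, 4 and 5. The 2D libraries of mice 2 and 5 thus lay within or above the range of 3D, and those of mice 3 and 4 lay below it. The means were 8.64 ± 7.13 FPKM in 2D and 13.9 ± 1.70 in 3D (SD, n = 4 each), and the fitted difference of 1.02 (SE 0.59, 95% interval -0.35 to 2.38) did not pass the test (limma adjusted p = 0.207). With the 2D libraries of mice 3 and 4 left out, the difference was -0.077 (limma adjusted p = 0.692). With those of mice 2 and 5 left out it was 2.04 (limma adjusted p = 0.00237). The first setting left out the low and the second the high 2D libraries of Cx3cl1, after seeing the data, so neither tests the difference. Within mouse 4 the log2 difference was 2.55 and within mouse 5 it was -0.45. The libraries low in Cx3cl1 were those with mesothelial sums of 853 and 2218 FPKM, whose part in this difference was not tested.

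Ccl17, a ligand of CCR4 on T cells, reached 11.4, 1.33, 0 and 17.7 FPKM in 2D for mice 2, 3, 4 and 5, from about 55, 6, 0 and 95 fragments. In 3D it was at 0.149 FPKM in mouse 1, which is 1 fragment, and listed at 0 in mice 4, 5 and 7. The cultures overlapped because mouse 4 was at 0 in both, and the fitted difference of -2.22 (SE 0.89) missed the threshold (limma adjusted p = 0.0816). It was called without the 2D library of mouse 4 (-2.98, limma adjusted p = 0.0129). Without those of mice 3 and 4 it was also called (-3.88, limma adjusted p = 7.0e-05). Both fits left out 2D libraries low in Ccl17, which favours a call. The second setting was chosen after seeing the data. Ccl17 and Cx3cl1 were thus high in the same 2D libraries, those of mice 2 and 5, but in 3D Cx3cl1 was present and Ccl17 was at 1 fragment or none.

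Ccl5 (RANTES, ENSMUSG00000035042.2, chr11:83525778-83530518, minus strand), an attractant of T cells and monocytes that lies far from the Ccl2 cluster on chromosome 11, rose in 3D. It was at 0.305, 0.846, 0.511 and 0 FPKM in mice 2, 3, 4 and 5 in 2D and at 0.426, 10.01, 6.34 and 5.44 FPKM in mice 1, 4, 5 and 7 in 3D. Mouse 1 lay among the 2D libraries, and the other 3D libraries stood above all of them. As deposited, the 2D values (at most 0.762 FPKM) and that of 3D mouse 1 (0.649) lay near or below the floor of 3 fragments, 0.523 to 0.645 FPKM. The means were 0.415 ± 0.355 and 5.55 ± 3.95 FPKM (SD, n = 4 each), with a fitted difference of 1.92 (SE 0.60, 95% interval 0.52 to 3.32, limma adjusted p = 0.0356). Without the 3D library of mouse 1 the difference was 2.55 (adjusted p = 5.2e-04), and on leaving out any of the other 7 libraries in turn the adjusted p was 0.0521 to 0.0871, so that the call was lost. The log2 difference within the animal was 2.86 for mouse 4 and 2.88 for mouse 5.

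**Figure D4:**
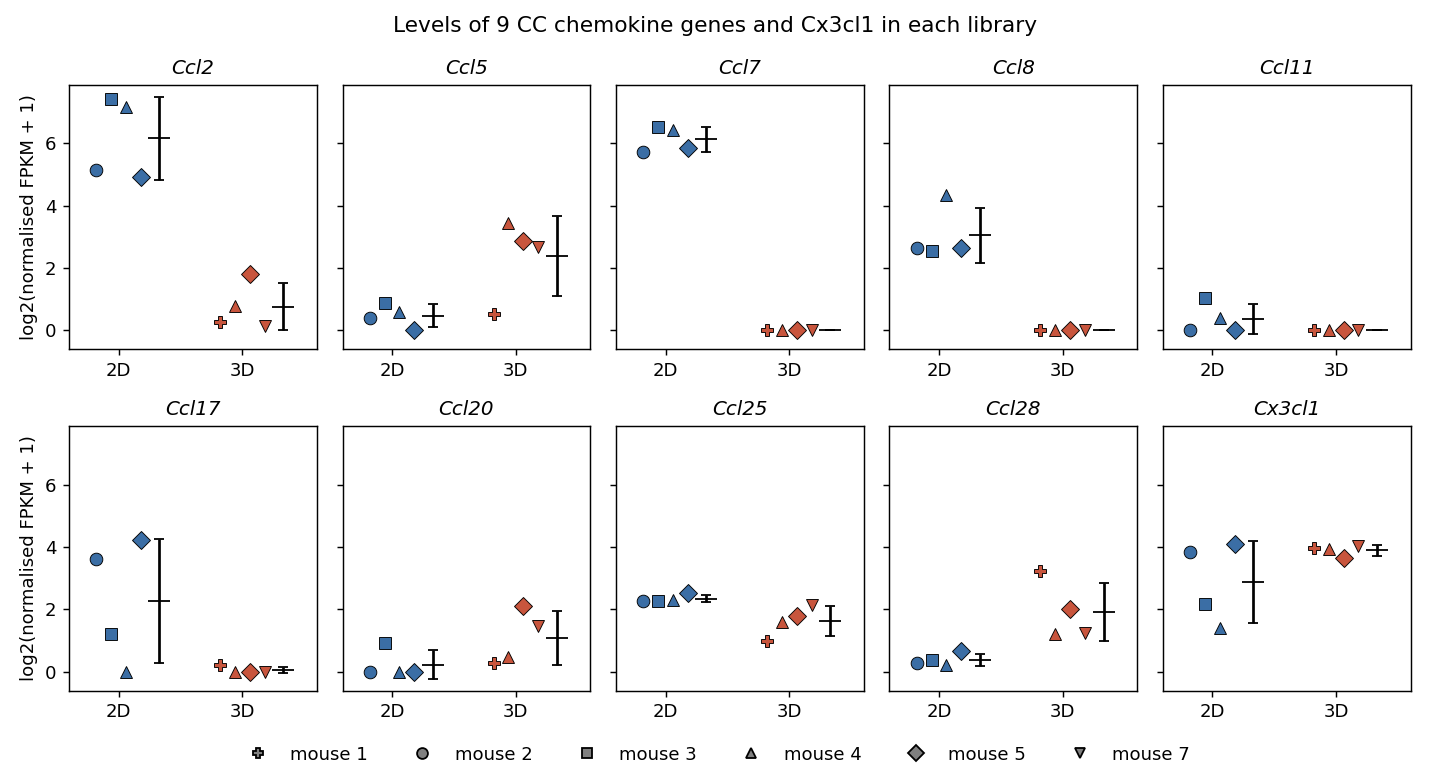
Level of each of the 10 genes in each library, as log2(normalised FPKM + 1), with 2D libraries in blue, 3D libraries in red, a marker shape per mouse, and the mean with its SD (n = 4) beside the points. Ccl7 and Ccl8 are at 0 in all 3D libraries, and Ccl5 in the 3D library of mouse 1 sits with the 2D libraries.

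Of the chemokines known from epithelia, Ccl28 was called higher, Ccl20 had a fitted rise that was not called and Ccl25 was called lower. These genes were not compared with one another. Ccl28 (chromosome 13), a mucosal ligand of CCR10 and CCR3, was at 0.208, 0.303, 0.165 and 0.573 FPKM in mice 2, 3, 4 and 5 in 2D and at 8.30, 1.33, 3.01 and 1.36 FPKM in mice 1, 4, 5 and 7 in 3D. Each 3D library was above each 2D library, and mouse 1, the library low in Ccl5, was the highest. The deposited 2D values, 0.129 to 0.3585 FPKM, lay close to the floor of 3 fragments, 0.1386 to 0.1475 FPKM, with mouse 2 below it. The means were 0.312 ± 0.183 and 3.50 ± 3.30 FPKM (SD, n = 4 each), with a fitted difference of 1.54 (SE 0.43, 95% interval 0.53 to 2.54, limma adjusted p = 0.0233). The call was lost without the 2D library of mouse 2 (adjusted p = 0.0545), the 2D library of mouse 4 (0.0527) or the 3D library of mouse 5 (0.0563).

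Ccl20 (chromosome 1), the ligand of CCR6, was at 0, 0.875, 0 and 0 FPKM in mice 2, 3, 4 and 5 in 2D and at 0.219, 0.375, 3.29 and 1.75 in mice 1, 4, 5 and 7 in 3D. As deposited, 3D mice 1 and 4 were at 0.3428 and 0.4345 FPKM, near or below the floor of 3 fragments, 0.3594 and 0.3385 FPKM. The 2D library of mouse 3 lay above the 3D libraries of mice 1 and 4, and the fitted difference of 0.85 (SE 0.43, 95% interval -0.15 to 1.85) did not pass the test (limma adjusted p = 0.156). Its promoter (chr1:83116516-83116815, plus strand) is shown because it held the only match to the κB motif among the promoters of these genes, and the match is in capitals.
Ccl20: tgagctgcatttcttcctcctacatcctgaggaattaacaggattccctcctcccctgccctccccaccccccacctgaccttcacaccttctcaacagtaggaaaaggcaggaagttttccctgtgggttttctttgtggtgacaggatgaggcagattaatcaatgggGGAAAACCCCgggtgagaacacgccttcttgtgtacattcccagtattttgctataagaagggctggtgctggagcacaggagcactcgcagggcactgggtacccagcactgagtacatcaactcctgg
The match begins at position -80 from the start, and 4.51% of all promoters in the table hold at least 1 on either strand. The Ccl28 promoter held no match to any of the motifs searched.

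Ccl25 (chromosome 8), the ligand of CCR9 known from thymus and small intestine, was at 3.81, 3.85, 3.91 and 4.76 FPKM in mice 2, 3, 4 and 5 in 2D and at 0.994, 2.03, 2.45 and 3.37 in mice 1, 4, 5 and 7 in 3D. All 3D libraries were below all 2D libraries. As deposited, 3D mouse 1 was at 1.40 FPKM, below its floor of 3 fragments, 1.476 FPKM. The means of 4.08 ± 0.451 and 2.21 ± 0.985 FPKM (SD, n = 4 each) gave a fitted difference of -0.71 (SE 0.24), close to the threshold (limma adjusted p = 0.0491). On the values as deposited it was -0.43 (adjusted p = 0.153), and among the fits that leave out 1 library the call held only without the 3D library of mouse 7 (adjusted p = 0.024), with 0.0593 to 0.112 for the others. Ccl25 overlaps Elavl1 on the opposite strand, so without strand in the counting, reads within the overlap could not be told apart.

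The order of the 10 genes differed between the cultures, with FPKM read as a level per transcript length. In 2D, Ccl2 and Ccl7 overlapped each other and stood above Ccl8, which overlapped Cx3cl1, as did Cx3cl1 with Ccl17 and Ccl17 with Ccl25. All 2D values of Ccl25 were above those of Ccl5, the next in order, and Ccl5, Ccl11, Ccl28 and Ccl20 followed with overlapping ranges up to 1.03 FPKM. In 3D, Cx3cl1 stood above all others, since its lowest library, 11.5 FPKM, was above the highest of Ccl5, 10.01 FPKM. Ccl5, Ccl28, Ccl25, Ccl20, Ccl2 and Ccl17 followed, each overlapping the next, and Ccl7, Ccl8 and Ccl11 were at 0.

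Of 15 other CC chemokine genes, 9 were listed at 0 in every library, among them Ccl1, Ccl3, Ccl12, Ccl22 and Ccl26, and 6 were tested. Of these 0 were called higher and 1 was called lower, beside 21.2% and 20.3% of all genes, with a median fitted difference of -0.04. The gene that fell was Ccl9, which attracts monocytes, with 2.37, 0.645, 1.53 and 1.62 FPKM in mice 2, 3, 4 and 5 in 2D and at most 0.0476 in 3D (fitted difference -1.25, SE 0.20, limma adjusted p = 0.00168). With a pseudocount of 0.1 the difference was -3.50.

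The receptors that read these ligands were scarce in both cultures. None of the 11 signalling receptors exceeded 0.783 FPKM, the level of Cx3cr1 in the 2D library of mouse 2, and 7 of them were listed at 0 in every 3D library. Ccr2, which binds CCL2 and CCL7, was listed at 0 in all 8 libraries. Over the 16 receptor genes, atypical receptors included, 13 were tested, 3 were called higher and 3 lower, with a median of -0.03. Those counts were close to the shares over all genes, 21.2% higher and 20.3% lower. Ccrl2, an atypical receptor that holds chemerin at the cell surface, rose from between 0.0517 and 0.211 FPKM in 2D to between 2.16 and 8.29 FPKM in 3D (fitted difference 2.35, SE 0.30, limma adjusted p = 6.6e-04). The other calls lay at low levels. Ccr9, the CCL25 receptor, was at 0.0280 to 0.338 FPKM in 2D and 0.296 to 0.534 in 3D (adjusted p = 0.0377, limma), and Ccr4 was at most 0.0751 FPKM in any library (adjusted p = 0.0256, limma). Cx3cr1, the fractalkine receptor, was at 0.122 to 0.783 FPKM in 2D and at most 0.0625 in 3D (adjusted p = 0.0424, limma), and Ccr1 (0.0338) and Ccr3 (0.0192) were called lower, at most 0.238 FPKM in 2D and listed at 0 in 3D. Without the intensity trend the calls of Ccr1, Ccr3, Ccr4 and Cx3cr1 were lost (limma adjusted p between 0.0536 and 0.177), and those of Ccr1, Ccr4, Ccr9 and Cx3cr1 were each lost on leaving out any of 6 of the 8 libraries in turn (the 2D library of mouse 2 and the 3D libraries of mice 5 and 7 for all of them) and that of Ccr3 without the 2D library of mouse 4 (0.0565). Ccr6 and Ccr10 were not called.

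Proteases act on these ligands after secretion. Of a list of 7 such genes and the inhibitor gene Timp3, 6 were called, 2 higher and 4 lower, Timp3 among the latter (median -0.74). Over all genes, 21.2% were called higher and 20.3% lower. Adam17, an inducible sheddase of fractalkine, rose from 14.8 ± 1.73 to 28.4 ± 2.49 FPKM (SD, n = 4 each), with a fitted difference of 0.89 (SE 0.11, limma adjusted p = 4.1e-04). Adam10, its constitutive sheddase, was at 38.4 to 72.6 FPKM in 2D and 44.7 to 54.0 in 3D, with a difference of -0.05 (limma adjusted p = 0.852); it is named here after its values were seen. Dpp4, which trims the ends of several chemokines, rose by a fitted 1.55 (SE 0.43, limma adjusted p = 0.023), from 0.0558 to 0.812 FPKM in 2D to 1.10 to 6.09 in 3D. That call was lost without the 2D library of mouse 2, 3 or 5 or the 3D library of mouse 5 (adjusted p between 0.0541 and 0.0619). Mmp2, a protease known to clip CCL7 into a receptor antagonist, fell from between 62.7 and 133 FPKM to at most 0.205 (fitted difference -6.49, SE 0.22, limma adjusted p = 8.6e-07). Mmp14, which activates Mmp2, fell by 2.41 and Timp3, an inhibitor of Adam17, fell by 3.33 on the log2 scale, with limma adjusted p of 0.00487 and 0.00615. Mmp9 fell by 1.14 (limma adjusted p = 0.0397), but its libraries overlapped, since the 2D library of mouse 4 was at 0.00462 FPKM and those of mice 2, 3 and 5 at 2.89, 1.504 and 1.55. The Mmp9 call held only without that library (adjusted p = 6.0e-04), with 0.0691 to 0.0887 on leaving out any of the others.

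Among 19 receptors and transcription factors that induce these chemokines, 8 were called higher, 3 lower and 8 not, with a median fitted difference of 0.64. The shares over all genes were 21.2% higher and 20.3% lower. The largest rises were in Tlr3, the sensor of double-stranded RNA (3.16, SE 0.36), Il13ra1, a chain of the interleukin-13 receptor (1.99, SE 0.16), Tlr2 (1.79, SE 0.22) and Nfkb1, an NF-κB subunit (1.33, SE 0.16), with limma adjusted p between 5.5e-05 and 4.6e-04. Those that fell were Il4ra, the receptor chain through which interleukin-4 induces Ccl17 and Ccl11 (-1.98, SE 0.30, limma adjusted p = 0.00132), Ifngr2 (-0.72, adjusted p = 0.00128) and Il17ra (-0.72, adjusted p = 0.0172). In 3D, Tlr3 was at 11.99 FPKM for mouse 1 and at 31.1, 28.0 and 45.0 FPKM for mice 4, 5 and 7, so the library low in Ccl5 was also the lowest of the 3D libraries in Tlr3, though above the 2D range of 1.63 to 2.51.

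Of 9 inducing cytokines, Ifng and Il17a were listed at 0 throughout. Of the 7 tested 2 were called higher and 0 lower (median 0.74), beside 21.2% and 20.3% of all genes. Tnf, which induces Ccl2, Ccl5, Ccl20 and Cx3cl1 in many cell types, was listed at 0 in every 2D library and at 15.7, 13.2, 27.0 and 15.6 FPKM in mice 1, 4, 5 and 7 in 3D (limma adjusted p = 7.5e-06). Tslp, an epithelial cytokine that makes dendritic cells release CCL17, rose by a fitted 1.04 (SE 0.26, limma adjusted p = 0.015), from 0.616 to 1.19 FPKM in 2D to 1.499 to 4.94 in 3D. With the mouse as a block, 0 genes of each of these lists were called.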

How the data were processed

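The authors depleted ribosomal RNA, made directional paired-end libraries, trimmed the reads with FASTX_Trimmer and BBMap, and deposited Cufflinks FPKM per gene and library. The submitters' processing notes name TopHat and mm10. The annotation and any strand setting were not given in the sources used here. Quantile normalization, which the study applied next, is not yet part of these values. Cufflinks corrects for effective length, so the level of short genes such as these depends on that correction.

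Genes at 0 in all 8 libraries (5484 of 24346) were left out. The other 18862 were quantile normalized and converted to log2(FPKM + 1), and 3D minus 2D was fitted with limma 3.58.1 (R 4.3.3) with empirical Bayes moderation, an intensity trend and no covariates, a script tested on simulated data. The members, lists and tests were chosen with earlier results of these data known. Named genes are the 10 members, at most 4 called in each direction per other list by size of the fitted difference, receptors of the members, genes listed at 0 throughout and defining markers, with exceptions marked. Not all genes under this rule are reported here.

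The mouse numbers pair the cultures of mice 4 and 5, which come from the same animals. Over 12577 genes, the correlation between both libraries of an animal, each taken as its deviation from the mean of its culture, was -0.05 in mouse 4 and -0.11 in mouse 5. Depth was estimated from the steps of low values in 4107 genes with 1 transcript of at least 500 nt, of which 69.0% to 74.3% lay within 0.05 of a whole fragment (10% by chance). Symbols were matched to GENCODE M21 for 23268 genes (95.6%). Alternatives were the values as deposited, a pseudocount of 0.1, a mean of at least 1 FPKM, no intensity trend, the mouse as a block, only mice 4 and 5, the criterion of the study (2-fold, unadjusted p below 0.05) and each library left out in turn.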

Additional observations from a re-analysis of the deposited data

Results flagged for a closer look

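In 44 groups of 4 libraries, a library was marked where its gap to the nearest other took up more of the range than Dixon's 95% critical value allows, which chance gives in about 1 in 20 groups. The 44 include the 3D groups of Ccl7, Ccl8, Ccl11, Ccr1 and Ccr3, which were at 0 in all 4 libraries and could not be marked. Ccl8 was at 19.5 FPKM in 2D mouse 4 and at 4.79 to 5.28 in the other 2D libraries. Ccl25 was at 4.76 FPKM in the 2D library of mouse 5, beside 3.81 to 3.91 in the rest. Ccl20 was at 0.875 FPKM in 2D mouse 3 and at 0 in the others. Ccl17 was at 0.149 FPKM, or 1 fragment, in the 3D library of mouse 1 and at 0 in the others. Ccr4 was at 0.0298 FPKM in 2D mouse 4 and at 0 in the others, all close to the detection limit. Where the others are all at 0, as for Ccl20, Ccl17 and Ccr4, any value above 0 is marked. The chance of 1 in 20 does not hold for such groups. The last marked genes are named after their values were seen. Ackr4, an atypical receptor that takes up CCL25 among other ligands, was at 34.1 FPKM in 3D mouse 1 and at 1.13 to 1.93 in those of mice 4, 5 and 7. Ccl27a, an epithelial CC chemokine with near-identical copies that can share reads, was at 0.0984 FPKM in 3D mouse 1 and at 7.06 to 9.89 in the others, beside 2.74 to 5.82 in 2D. The 3D library of mouse 1, whose sample description ends in an unexplained number in place of 3D, was thus marked for 3 genes. The mark for Ccl17 rests on 1 fragment, and the cause of the marks was not tested.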

How the results depend on the processing

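Over the alternatives, 166 of 167 fitted differences of the 10 genes kept their direction and 129 kept their side of the threshold. Cx3cl1 reversed to -0.077 without the 2D libraries of mice 3 and 4. With the mouse as a replicate block, 0 of all genes were called instead of 7823, and 0 of the 10 genes, the other ligands, the receptors, the proteases, the inducers and the inducing cytokines. That fit has 1 residual degree of freedom, and 5216 of all genes and 5 of the 10 had an unadjusted p below 0.05 in it. Leaving out 1 library called 6672 to 7534 of all genes, 3 to 5 of the 10, 1 to 2 other ligands, 2 to 4 receptors, 2 to 4 inducing cytokines and 4 to 6 genes of the protease list. With only mice 4 and 5, 3220 of all genes, 4 of the 10, 2 receptors and 1 inducing cytokine were called. The study's criterion gave 4059 of all genes, 6 of the 10 and 2 receptors. A mean of at least 1 FPKM gave 1 receptor and 0 other ligands, and no intensity trend gave 2 receptors. A pseudocount of 0.1 gave 4 inducing cytokines. It changed the fitted difference to 3.25 for Ccl5, 2.82 for Ccl28, 3.27 for Dpp4 and -3.06 for Mmp9. Of the inducing cytokines, 1 was called without the 2D libraries of mice 3 and 4 and 1 without those of mice 2 and 5, settings chosen after seeing the data, as was leaving out genes under 300 nt, which kept the 6 calls. Without the 2D libraries of mice 3 and 4, 4 of the 10 genes were called, beside 7766 of all 18428 tested. Without those of mice 2 and 5, 5 of the 10 were called, beside 6296 of 18575. The cause of these changes was not tested. At 15.4 to 18.4 M fragments per library, values below the floor of 3 fragments were not resolved.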
